A study of Mus musculus with 12 samples.

Results

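Transcript levels of the molecular clock were examined in mouse liver for 10 listed genes. Arntl, Npas2, Clock and Cry1 peak late in the night or around dawn in mouse liver, and Dbp, Tef, Per2, Per3, Nr1d1 and Nr1d2 peak in the later part of the day or around dusk. The genes were matched by the gene symbol of the array's annotation, using probe sets with 1 symbol and, for a gene, the probe set of highest mean. Of the 10 genes, 9 had a probe set, 1 each, and all 9 passed the filter on low values. Npas2, which can stand in for Clock as the partner of Arntl, had no match in the annotation used here and was not analysed. The series as a whole holds 28815 probe sets, of which 19119 were tested.

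The livers came from ovariectomized C57BL/6 mice, 3 months old, and were read on 12 Affymetrix Mouse Gene 1.0 ST arrays, 2 for each of 6 groups. The MOER groups carry, per the labels, oestrogen receptor alpha at the membrane only. The ERKO groups lack oestrogen receptor alpha, and the WT groups are wild type. In each genotype 1 group received PPT, an agonist of oestrogen receptor alpha, at 100 µg per day. The other group received 0.1 mL of oil, and both were injected for 3 days after 1 week of recovery from surgery. Each array took RNA pooled from 3 animals, and per the labels the study was done again. Whether replicate arrays hold different animals cannot be read from the labels, so every p-value measures the spread between these arrays only. Neither the hour at which livers were taken nor the lighting or feeding schedule is given in the labels, nor how the MOER receptor is expressed.

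The liver clock is a loop of activators and repressors of transcription. ARNTL, also called BMAL1, pairs with CLOCK or NPAS2 and activates genes with E-box sequences, among them the Per and Cry genes, the Nr1d genes, Dbp and Tef. PER and CRY proteins then block that pair, while the NR1D receptors, also called REV-ERB alpha and beta, repress Arntl. DBP and TEF bind D-box sequences and carry the rhythm to many metabolic genes of the liver. With this wiring the level of Arntl normally runs opposite to those of Dbp and Nr1d1 over the day.

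Promoter sequence was taken from RefSeq (build GRCm38.p6, 250 bases before to 50 after an annotated start), which held windows for 9 of the 10 genes. Per2 was the gene without one. Each window was searched on both strands for 4 sequences. The E-box CACGTG was found in 7.15% of all 32851 windows and the related E-prime box CACGTT in 4.68%. The D-box TTATGTAA was found in 0.938%, and TAGGTCA, the half-site that REV-ERB and ROR receptors recognise, in 2.61%. At least 1 of them was found in 5 of the genes, and the stretches that hold them are shown so that the letters can be set beside the values below. Capitals mark the matches, which do not overlap each other. Each stretch reads 5′ to 3′ on the gene's strand, and AACGTG is the E-prime box read from the other strand.
Arntl, chr7:113207529-113207558, plus strand, REV-ERB/ROR half-site: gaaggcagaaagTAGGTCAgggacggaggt
Cry1, chr10:85185055-85185154, minus strand, E-prime box and E-box: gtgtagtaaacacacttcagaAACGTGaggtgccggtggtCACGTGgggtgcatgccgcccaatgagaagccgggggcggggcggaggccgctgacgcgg
Tef, chr15:81802503-81802602, plus strand, E-box: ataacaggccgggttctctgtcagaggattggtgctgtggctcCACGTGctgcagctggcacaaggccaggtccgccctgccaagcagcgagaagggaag
Nr1d1, chr11:98775378-98775477, minus strand, E-prime box: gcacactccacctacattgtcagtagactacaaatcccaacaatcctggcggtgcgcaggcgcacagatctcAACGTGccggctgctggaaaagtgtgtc
Per3, chr4:151044796-151044895, minus strand, D-box at 2 places: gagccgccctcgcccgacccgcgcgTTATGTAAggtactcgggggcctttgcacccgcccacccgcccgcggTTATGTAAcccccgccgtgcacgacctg
Counted from the annotated start, the first base of the match was at 31 in Arntl, at -79 and -60 in Cry1, at -127 in Tef, at -28 in Nr1d1 and at -205 and -158 in Per3. A second annotated start of Tef had an E-box at -138, and the Arntl match belongs to the second of 2 annotated starts. None of the 4 sequences was found in the windows of Npas2, Clock, Dbp or Nr1d2. A match is a run of letters and not a shown binding site, and no match says only that these letters are not in these windows.

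Array medians were 77.5 to 85.26. Replicates correlated across probe sets at 0.994 to 0.996, except in ERKO oil at 0.981. Its replicates lay over 2-fold apart at 162 probe sets, against 2 to 21 in the other groups. For the 9 clock genes the ERKO oil arrays differed by at most 0.33 on the log2 scale (Tef), which among all probe sets was the 66.1 percentile of size, and by 0.012 for Arntl, the 2.29 percentile. Esr1, the receptor's own gene, averaged 127 in MOER oil and 122 in ERKO oil arrays, against 356 in WT oil arrays (n = 2 each). Under oil its probe set separated both mutants from WT and not from each other (MOER minus ERKO 0.055, adjusted p = 0.816). With PPT it averaged 124 in MOER, 153.5 in ERKO and 317 in WT, and the change in ERKO passed (0.30, adjusted p = 0.0496). Of 9 hepatocyte markers measured none was dim in any group, and their summed intensity was 95400 and 127000 on the ERKO oil arrays, with all others between. In the WT response 4 of the 9 (Ahsg, Apoa1, Rbp4 and Trf) were called lower, where 16.2% of all probe sets were. The sum of the 9 was 96640 to 102700 in WT PPT against 120000 to 122300 in WT oil. The summed intensity of 10 of 11 pancreatic acinar markers was 36490 to 46640 in MOER oil arrays and 449 to 701 elsewhere, where 4 or 6 of the 10 were dim. That of 7 of 7 skeletal muscle markers was 8903 to 9249 in ERKO PPT arrays and 426 to 592 elsewhere, where Mylpf, Myh4 and Actn3 were dim. That of 7 of 7 squamous epithelium markers was 3462 to 3707 in ERKO PPT and WT PPT arrays and 201.5 to 346 elsewhere. In WT PPT this was Krt4 (3308 and 3210) with Krt13, Krt15, Sprr1a and Sprr3 dim, while in ERKO PPT Krt13 (2447 and 2288) and Sprr3 (592 and 555) were high as well. The sum of 7 neutrophil markers was 808 to 959 in MOER, 1121 to 2018 in ERKO and 229 to 525 in WT arrays. The sum of 6 endothelial markers was 3392 to 3478 in WT PPT and 4776 to 6355 elsewhere, and that of 5 lymphocyte markers was 303 to 355 over all arrays. Of all probe sets 2.35% were called higher and 2.31% lower with PPT in MOER, 9.48% and 8.46% in ERKO, and 14.8% and 16.2% in WT. For MOER minus ERKO these shares were 5.88% and 5.59%. Of 10 Kupffer cell markers 3 were called higher and 1 lower with PPT in MOER, and 0 higher and 6 lower in ERKO. In WT 4 were higher and 1 lower, and in MOER minus ERKO 6 higher and 1 lower. Marco, a scavenger receptor of these macrophages, gave 335 and 357 in MOER PPT against 72.98 and 51.9 in MOER oil, 49.0 and 46.3 in ERKO PPT against 134 and 88.35 in ERKO oil, and 969 and 987 in WT PPT against 134 and 136 in WT oil. It rose in MOER and WT and fell in ERKO. In the mutants it thus moved with PPT in the directions of Dbp, and in WT it moved opposite to Dbp. The part of these cell types in the clock values was not tested. In RNA of whole liver, fewer cells of a type and less RNA per cell cannot be told apart.

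Under PPT Arntl moved opposite to Dbp and Tef in both mutants, down in MOER and up in ERKO. In MOER livers Arntl and Cry1 fell and Dbp, Tef and Nr1d1 rose. In ERKO livers Arntl and Clock rose and Cry1, Dbp, Tef, Per2, Per3 and Nr1d2 fell. In WT livers Dbp, Tef, Per3, Nr1d1 and Nr1d2 fell, Arntl fell with them, and Clock rose. Values below are linear hybridisation intensities, always replicate 1 and then replicate 2. A change is the difference of group means of log2(intensity + 16), given with its standard error (SE). A fold given without "at least" is the ratio of the group means of linear intensity, so it can differ from the log2 change beside it. The SE and adjusted p belong to the log2 change. A gene was called at an adjusted p under 0.05 (limma, two-sided, Benjamini-Hochberg over the 19119 probe sets). A group is termed dim for a gene where both arrays lie under the 40th percentile of their own array, which was 53.6 to 61.0. A change into a dim group is given as at least so many fold.

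**Figure D1:**
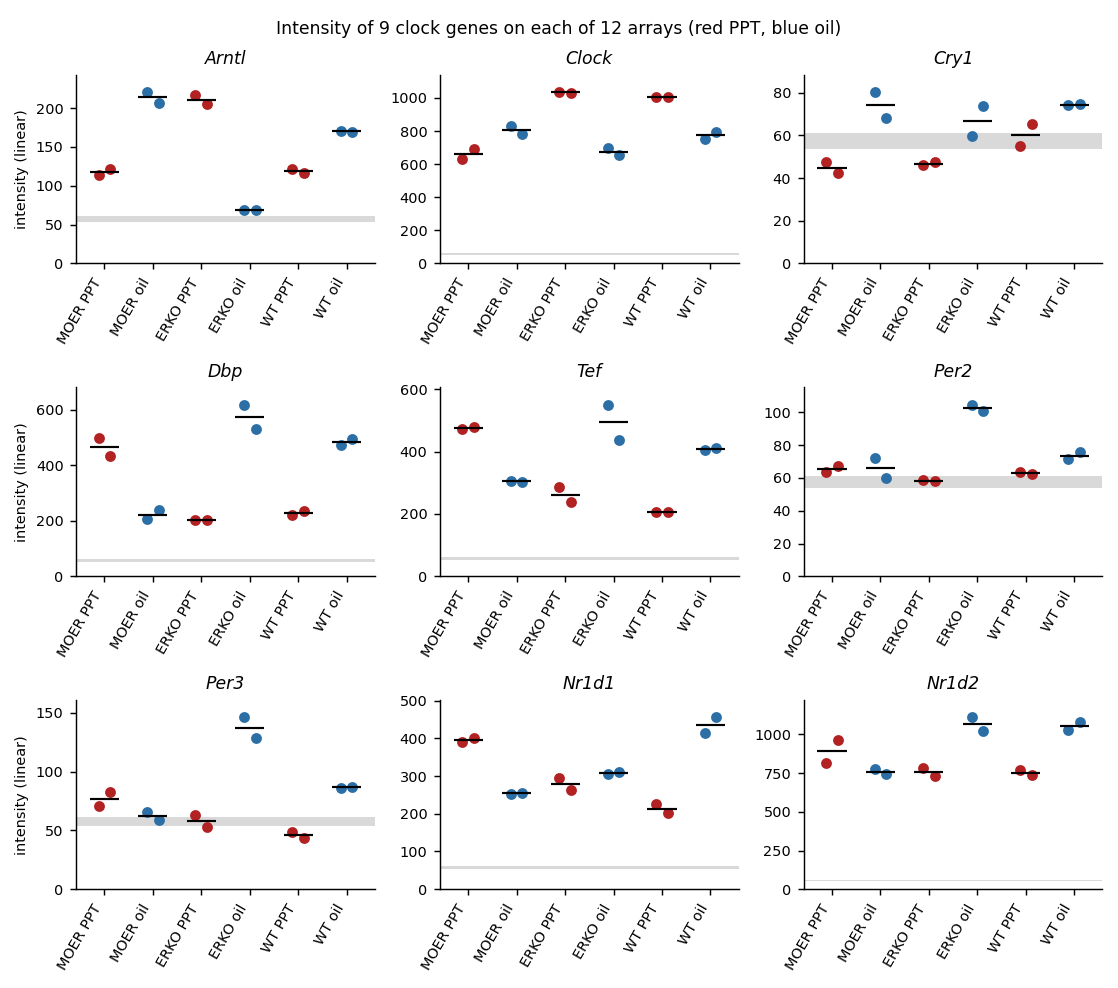
Intensity (linear scale, from 0) of each of the 9 genes on each of the 12 arrays, with PPT arrays in red, oil arrays in blue, a black bar for the mean of 2 arrays and a grey band for the range of the arrays' 40th percentiles. Arntl is highest in MOER oil and ERKO PPT and lowest in ERKO oil. In the mutants Dbp runs nearly the other way, at 202 on both ERKO PPT arrays and at 532 or more on both ERKO oil arrays. In WT both genes are lower with PPT than with oil.

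Arntl is the activator without which the clock stops. Its intensities were 115 and 121 in MOER PPT against 221 and 207 in MOER oil, 217 and 205 in ERKO PPT against 69.5 and 68.8 in ERKO oil, and 122 and 116 in WT PPT against 171 and 169 in WT oil. PPT and oil arrays overlapped in no genotype. MOER oil and ERKO PPT overlapped at the top, MOER PPT overlapped WT PPT, and ERKO oil stood alone at the bottom. Arntl fell with PPT in MOER, 1.82-fold (-0.78 ± 0.084 SE, adjusted p = 0.000261), and rose in ERKO, 3.05-fold (1.41 ± 0.084, adjusted p = 1.55e-06). In WT it fell 1.43-fold (-0.46 ± 0.084, adjusted p = 0.00158).

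Clock encodes the usual partner of ARNTL. It gave 634 and 690.4 in MOER PPT against 829 and 784 in MOER oil, 1037 and 1028 in ERKO PPT against 696 and 652 in ERKO oil, and 1004 and 1007 in WT PPT against 750.1 and 796 in WT oil. The 4 PPT arrays of ERKO and WT were the highest of the 12, MOER oil overlapped WT oil, and MOER PPT overlapped ERKO oil at the low end. Clock rose with PPT in ERKO, 1.53-fold (0.60 ± 0.088, adjusted p = 0.00129), and in WT, 1.30-fold (0.37 ± 0.088, adjusted p = 0.0076). Its change in MOER, -0.28 ± 0.088, did not pass (adjusted p = 0.124). The ERKO call was lost when the ERKO arrays alone were fitted (adjusted p = 0.0754). The WT call was lost without WT oil replicate 1 (adjusted p = 0.0759) or WT PPT replicate 2 (adjusted p = 0.0524), and the MOER change was called without either of the ERKO oil arrays (adjusted p = 0.0465).

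Cry1 and the Per genes encode the repressors that close the loop. Cry1 gave 47.4 and 42.3 in MOER PPT against 80.4 and 67.9 in MOER oil, 45.98 and 47.6 in ERKO PPT against 59.5 and 73.7 in ERKO oil, and 55.1 and 65.2 in WT PPT against 73.95 and 74.7 in WT oil. PPT arrays were below oil arrays in all 3 genotypes, and the PPT groups of both mutants were dim. Cry1 fell in MOER at least 1.22-fold (adjusted p = 0.0183) and in ERKO at least 1.12-fold (adjusted p = 0.0417). In WT its change was -0.25 (95% interval -0.51 to 0.0062, adjusted p = 0.133). The ERKO call was lost in 9 of 12 fits that left out an array (adjusted p = 0.0538 to 0.151). The MOER call was lost without MOER oil replicate 1 (0.185), MOER PPT replicate 1 (0.0738) or MOER PPT replicate 2 (0.144).

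Per2 gave 63.5 and 67.1 in MOER PPT against 71.9 and 59.6 in MOER oil, 58.6 and 57.85 in ERKO PPT against 105 and 101 in ERKO oil, and 63.4 and 62.4 in WT PPT against 71.2 and 75.9 in WT oil. ERKO oil stood above every other group, MOER PPT lay within the range of MOER oil, and the values outside ERKO oil lay little above the arrays' 40th percentile or close to it. Per2 fell in ERKO, 1.76-fold (-0.68 ± 0.094, adjusted p = 0.001). Its change was -0.0040 in MOER (95% interval -0.21 to 0.20) and -0.18 in WT (95% interval -0.39 to 0.025), and neither passed (adjusted p = 0.993 and 0.174).

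Per3, the gene with the D-box matches shown above, gave 71.1 and 82.3 in MOER PPT against 65.5 and 58.6 in MOER oil, 62.9 and 52.5 in ERKO PPT against 146 and 128 in ERKO oil, and 48.3 and 43.5 in WT PPT against 85.8 and 87.25 in WT oil. As for Per2, ERKO oil was highest. WT PPT was lowest and dim, and ERKO PPT overlapped MOER oil. ERKO PPT replicate 1 lay little above the 40th percentile of its array (58.55), and replicate 2 lay under its own (59.5). Per3 fell in ERKO, 2.38-fold (-1.06 ± 0.11, adjusted p = 0.000144), and in WT at least 1.55-fold (adjusted p = 0.000472). In MOER the change was 0.25 ± 0.11 and did not pass (adjusted p = 0.324).

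Nr1d1 and Nr1d2 encode the receptors that repress Arntl. Nr1d1 gave 390.0 and 399.85 in MOER PPT against 252 and 256 in MOER oil, 294 and 264 in ERKO PPT against 305 and 310.3 in ERKO oil, and 226 and 201 in WT PPT against 415 and 455 in WT oil. WT oil was highest and WT PPT lowest, and the PPT arrays of ERKO lay just under its oil arrays. Nr1d1 rose with PPT in MOER, 1.555-fold (0.61 ± 0.095, adjusted p = 0.00363), and fell in WT, 2.04-fold (-0.98 ± 0.095, adjusted p = 2.01e-05). In ERKO, where Arntl rose, Nr1d1 changed by -0.14 (95% interval -0.35 to 0.075) and did not pass (adjusted p = 0.366).

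Nr1d2 gave 815 and 966 in MOER PPT against 775 and 744 in MOER oil, 782 and 733 in ERKO PPT against 1109.8 and 1023 in ERKO oil, and 769 and 739.5 in WT PPT against 1027 and 1081 in WT oil. ERKO oil and WT oil overlapped at the top, and MOER oil, ERKO PPT and WT PPT overlapped at the bottom. Nr1d2 fell in ERKO, 1.41-fold (-0.48 ± 0.10, adjusted p = 0.00947), and in WT, 1.40-fold (-0.47 ± 0.10, adjusted p = 0.00446). In MOER its change was 0.22 ± 0.10 and did not pass (adjusted p = 0.348). The ERKO call was lost without ERKO PPT replicate 2 (adjusted p = 0.0832), with only the ERKO arrays fitted (0.142) and with array weights (0.108).

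Dbp and Tef encode the activators that act on D-boxes. Dbp gave 499.6 and 436 in MOER PPT against 205 and 240.2 in MOER oil, 202 and 202 in ERKO PPT against 619.55 and 532 in ERKO oil, and 219.6 and 235 in WT PPT against 474 and 494 in WT oil. The groups formed a high and a low cluster: MOER PPT, ERKO oil and WT oil at 436 or more, and MOER oil, ERKO PPT and WT PPT at 240.2 or less. Dbp rose with PPT in MOER, 2.10-fold (1.02 ± 0.11, adjusted p = 0.000299). It fell in ERKO, 2.85-fold (-1.44 ± 0.11, adjusted p = 1.58e-05), and in WT, 2.13-fold (-1.04 ± 0.11, adjusted p = 4.15e-05).

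Tef, a gene with an E-box among the stretches above, gave 471 and 479.55 in MOER PPT against 305 and 303 in MOER oil, 286 and 237 in ERKO PPT against 551 and 436 in ERKO oil, and 205 and 207 in WT PPT against 406 and 411 in WT oil. The same 3 groups were high as for Dbp, and no PPT array overlapped the oil arrays of its genotype. Tef rose in MOER, 1.56-fold (0.62 ± 0.12, adjusted p = 0.0133), and fell in ERKO, 1.88-fold (-0.87 ± 0.12, adjusted p = 0.000941), and in WT, 1.99-fold (-0.94 ± 0.12, adjusted p = 0.000136). The MOER call was lost without any 1 of the 4 MOER arrays (adjusted p = 0.0916 and 0.0918 without oil replicates 1 and 2, 0.0931 and 0.0959 without PPT replicates 1 and 2).

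Set against all probe sets, the share of clock genes called was high in each genotype. As these genes were chosen with earlier results of these data known, the shares describe them and test nothing. In MOER 3 of 9 were called higher and 2 of 9 lower, where 2.35% of all probe sets were called higher and 2.31% lower. In ERKO 2 of 9 were higher and 6 of 9 lower, where the background was 9.48% higher and 8.46% lower. In WT 1 of 9 was higher, close to the background of 14.8%, and 6 of 9 were lower, where the background was 16.2%. The median change of the 9 genes was 0.22 in MOER, -0.48 in ERKO and -0.47 in WT, against 0.00063, 0.026 and 0.019 over all probe sets tested. The MOER count was 3 without MOER oil replicate 1, MOER PPT replicate 1 or MOER PPT replicate 2, and the ERKO count was 5 when only the ERKO arrays were fitted and 6 with array weights.

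**Figure D2:**
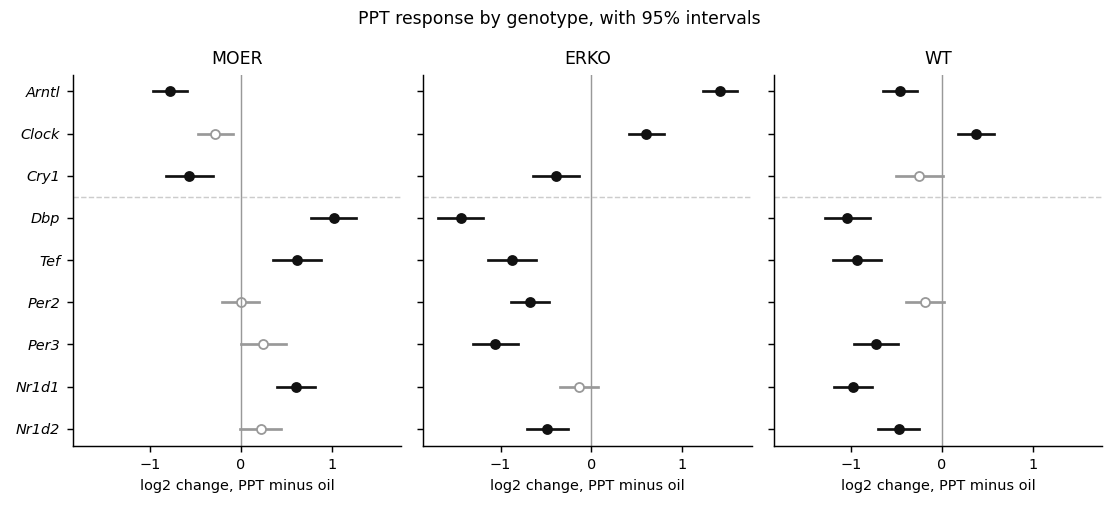
Change with PPT in MOER, ERKO and WT livers (x axis, log2 change, PPT minus oil) for the 9 genes, with 95% intervals; filled points passed the test, open points did not, and the dashed line parts the dawn genes from the dusk genes. Arntl sits at -0.78 in MOER, 1.41 in ERKO and -0.46 in WT, and Dbp at 1.02, -1.44 and -1.04.

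The study's question was which effects of the agonist arise from the membrane receptor, so the responses of the genotypes were set against each other directly. These 3 differences share arrays with each other and with the responses above. Between the mutants the difference was the widest for the genes at either end of the loop. The response in MOER minus that in ERKO was -2.195 ± 0.12 for Arntl (adjusted p = 8.68e-07) and 2.46 ± 0.16 for Dbp (adjusted p = 3.78e-06). All 6 dusk genes differed upward in that contrast, with Tef at 1.49, Per3 at 1.30, Nr1d1 at 0.74, Nr1d2 at 0.70 and Per2 at 0.67, and Clock differed downward at -0.88. Cry1 did not pass, at -0.18 (95% interval -0.54 to 0.19). Of 9 genes 6 were called higher and 2 lower, where 5.88% and 5.59% of all probe sets were. The Nr1d2 difference was lost without ERKO PPT replicate 2, where it was 0.66 (adjusted p = 0.054).

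The response in WT minus that in MOER was -2.06 ± 0.16 for Dbp (adjusted p = 8.11e-06), -1.58 ± 0.13 for Nr1d1 (adjusted p = 1.57e-05) and -1.555 ± 0.17 for Tef (adjusted p = 7.67e-05). These are genes that rose in MOER and fell in WT. Per3 at -0.975 and Nr1d2 at -0.69 differed the same way, and Clock differed by 0.65. Arntl, which fell in both genotypes, differed by 0.32 (95% interval 0.054 to 0.58) and did not pass (adjusted p = 0.0879), though it was called without either ERKO oil array (adjusted p = 0.0404) and after quantile normalisation (0.41, adjusted p = 0.00843). Of 9 genes 1 was called higher and 5 lower, where 10.5% and 11.1% of all probe sets were.

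The responses in WT and ERKO differed at fewer clock genes, 1 higher and 2 lower of 9, a share near the background of 10.3% and 12%. WT minus ERKO was -1.88 ± 0.12 for Arntl (adjusted p = 1.56e-06), -0.84 ± 0.13 for Nr1d1 (adjusted p = 0.00125) and 0.49 ± 0.13 for Per2 (adjusted p = 0.0218). Arntl rose in ERKO and fell in WT, and Nr1d1, the gene of its repressor, fell in WT and did not pass in ERKO. For Dbp the difference was 0.40 (95% interval 0.045 to 0.75, adjusted p = 0.102), for Tef -0.067 (-0.44 to 0.31), for Per3 0.33 (-0.018 to 0.67) and for Nr1d2 0.010 (-0.31 to 0.33). These intervals leave room for differences of the size of some responses. Per2 lost its call in 6 of 12 fits that left out an array (adjusted p = 0.0526 to 0.0896), and Dbp was called without ERKO oil replicate 2 (0.50, adjusted p = 0.0344).

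Under oil alone the genotypes already differed in their clock genes. In MOER oil arrays Dbp was 2.17-fold lower than in WT oil arrays (-1.07 ± 0.11, adjusted p = 0.000337), Nr1d1 1.71-fold lower (-0.74 ± 0.095, adjusted p = 0.00163) and Nr1d2 1.39-fold lower (-0.46 ± 0.10, adjusted p = 0.0257). Arntl at 0.30, Tef at -0.41 and Per3 at -0.39 did not pass (adjusted p = 0.0631, 0.0744 and 0.0646), and all 3 were called without either ERKO oil array (0.0224, 0.0157 and 0.0275). The Nr1d2 call was lost without any 1 of the arrays of WT oil (adjusted p = 0.125 and 0.168) or MOER oil (0.0991 and 0.188). MOER oil is also the group with the acinar transcripts, whose part in these values was not tested. Of 9 genes 0 were called higher, against a background of 2.13%, and 3 lower, against 3.53%. By an unadjusted p under 0.05, 6 of the 9 differed in this limma fit.

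In ERKO oil arrays Arntl was 2.46-fold lower than in WT oil arrays (-1.13 ± 0.084, adjusted p = 4.42e-05), a difference that passed in each of the 23 alternative settings. Nr1d1 was 1.415-fold lower (-0.48 ± 0.095, adjusted p = 0.0194), and Per3 1.585-fold (0.58 ± 0.11, adjusted p = 0.0163) and Per2 1.40-fold higher (0.41 ± 0.094, adjusted p = 0.0365). Against WT oil, Arntl and Nr1d1 were thus both lower in ERKO oil, while Nr1d2 differed by 0.016 (95% interval -0.21 to 0.24). Of 9 genes 2 were called higher, against a background of 2.24%, and 2 lower, against 2.77%. Without WT oil replicate 1 or without WT oil replicate 2 only Arntl stayed called: Per3 had adjusted p = 0.12 and 0.114, Nr1d1 0.081 and 0.179, and Per2 0.227 and 0.158. The Per2 call was lost in 9 of 12 fits that left out an array (adjusted p = 0.0518 to 0.227). With array weights or with only the compared groups fitted, Arntl alone was called.

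Against each other under oil, the mutants differed most in Arntl and Dbp. In MOER oil arrays Arntl was 3.09-fold higher than in ERKO oil arrays (1.43 ± 0.084, adjusted p = 5.29e-06), and Dbp was 2.58-fold lower (-1.31 ± 0.11, adjusted p = 0.00014). Per3 was 2.21-fold lower (-0.97 ± 0.11, adjusted p = 0.00106), with Tef at -0.66, Per2 at -0.54 and Nr1d2 at -0.48 (adjusted p = 0.0185, 0.0148 and 0.0406). Of 9 genes 1 was called higher, against a background of 0.894%, and 5 lower, against 1.16%. Without MOER oil replicate 2 the count was 3, with Tef at adjusted p = 0.153, Per2 at 0.185 and Nr1d2 at 0.291, and Tef was lost without MOER oil replicate 1 as well (0.0979). Nr1d2 lost its call in 8 of 12 fits that left out an array, and with the replicate number as a block (adjusted p = 0.0556). Nr1d1 did not pass, at -0.26 (adjusted p = 0.212). With array weights 3 of the genes were called, and with only the compared groups fitted 2 were.

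**Figure D3:**
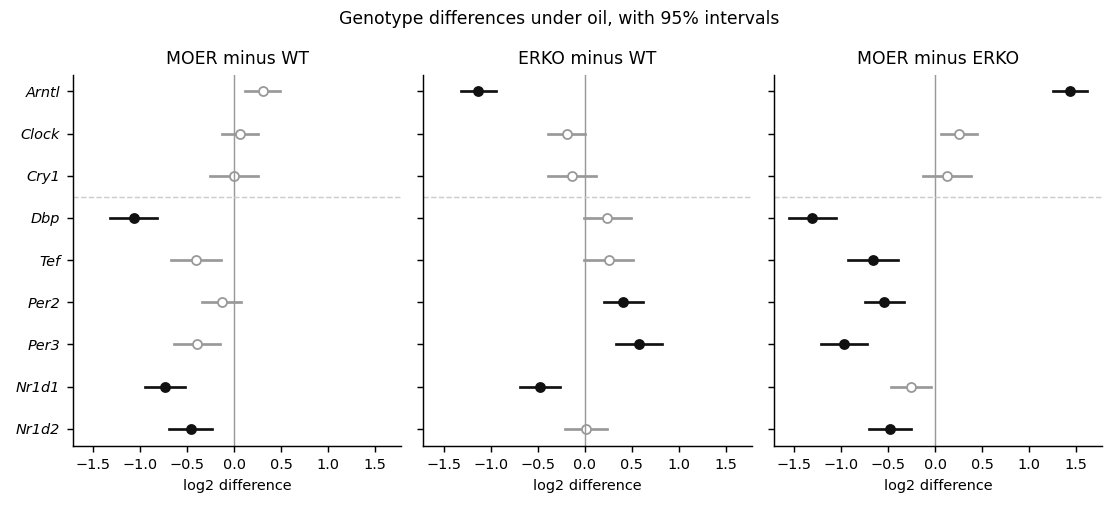
Differences between genotypes under oil (x axis, log2 difference) for the 9 genes, with 95% intervals; filled points passed the test and open points did not. Arntl is at 0.30 in MOER minus WT, -1.13 in ERKO minus WT and 1.43 in MOER minus ERKO, and Dbp is at -1.07, 0.24 and -1.31.

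The 2 sets of genes were then followed array by array, as the mean log2 level of Arntl, Clock and Cry1 minus that of the 6 dusk genes, each gene centred on its mean over the 12 arrays. This gap was -0.48 and -0.51 in MOER PPT against 0.55 and 0.45 in MOER oil, 0.46 and 0.56 in ERKO PPT against -0.91 and -0.72 in ERKO oil, and 0.41 and 0.50 in WT PPT against -0.14 and -0.17 in WT oil. The gap was above 0 on all arrays of MOER oil, ERKO PPT and WT PPT and below 0 on all arrays of the other 3 groups. The gap was thus higher in PPT than in oil in ERKO and WT and lower in PPT than in oil in MOER, with its sign, set by the centring, turned in each genotype. In WT the dusk genes had a mean of -0.41 and -0.45 in PPT against 0.27 and 0.33 in oil, while the dawn genes averaged 0.0048 and 0.051 in PPT against 0.13 and 0.16 in oil, a mean over Arntl, which fell there, and Clock, which rose. These are descriptions of chosen genes, with no test.

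**Figure D4:**
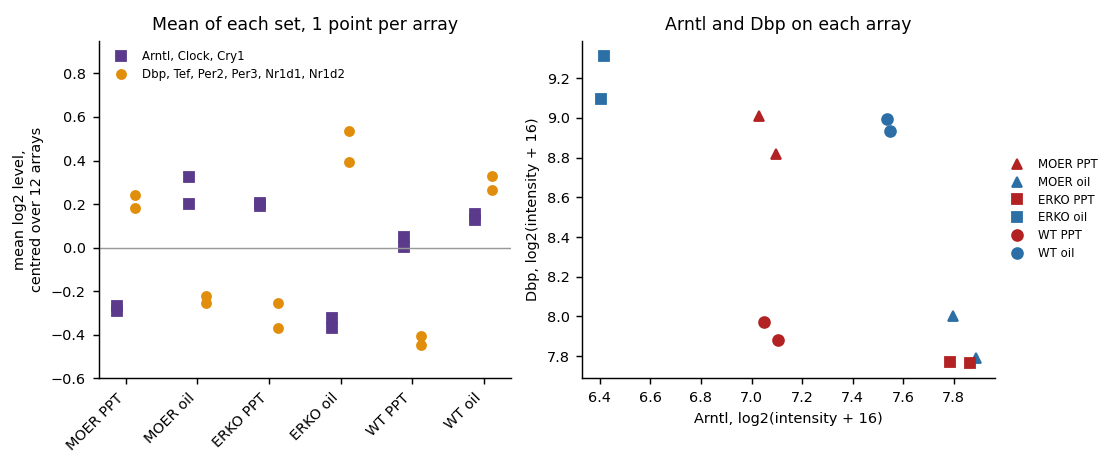
Left, mean log2 level of Arntl, Clock and Cry1 (squares) and of the 6 dusk genes (circles) on each array, centred over the 12 arrays, by group; right, Dbp against Arntl on each array, both as log2(intensity + 16). The sets change places between PPT and oil in each genotype. The WT PPT arrays lie apart in the right panel, with Arntl and Dbp both below their WT oil levels.

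Over the 12 arrays, which form 6 groups of close pairs, the dusk genes varied together. Pearson's r between their log2 levels was positive for all 15 pairs, at 0.246 (Per2 with Nr1d1) to 0.909 (Per2 with Per3). Arntl or Clock against a dusk gene gave a negative r in all 12 pairs, at -0.902 (Clock with Tef) to -0.0624 (Arntl with Nr1d1). Arntl and Clock gave 0.523. Cry1 followed neither set, with r between -0.153 and 0.421. All these points share the same arrays and the same 6 group means, so r describes the groups rather than independent samples.

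Between its highest and lowest group mean, Dbp spanned 1.44 log2 units and Arntl 1.43, at the 94.2 percentile of the 13987 genes tested. Per3 spanned 1.30, Tef 1.19 and Nr1d1 0.98, at the 92.8, 91.3 and 86.9 percentile. Per2 at 0.68, Clock at 0.63, Cry1 at 0.57 and Nr1d2 at 0.49 lay nearer the middle of all genes, at the 72.9, 69.1, 63 and 51.3 percentile. The genes were chosen with earlier results of these data known, so these ranks describe them and test nothing.

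Other parts of the clock were taken from a list of 13 further genes, of which 11 had a probe set and were tested. In MOER 2 were called higher and 0 lower, in ERKO 1 higher and 4 lower, and in WT 1 higher and 4 lower, with medians of 0.18, -0.35 and -0.24. The shares of all probe sets called higher and lower were 2.35% and 2.31% in MOER, 9.48% and 8.46% in ERKO and 14.8% and 16.2% in WT, so the share of these genes called higher in ERKO and WT lay near them. By an unadjusted p under 0.05 in the limma fit, 3 changed in MOER. Nfil3, which encodes the repressor that competes with DBP and TEF at D-boxes, gave 206 and 221 in MOER PPT against 112 and 114 in MOER oil, 227 and 195 in ERKO PPT against 96.3 and 67.4 in ERKO oil, and 291 and 319.6 in WT PPT against 112 and 125 in WT oil. It rose in all 3 genotypes, by 0.83 in MOER (adjusted p = 0.00488), 1.23 in ERKO (adjusted p = 0.000232) and 1.26 in WT (adjusted p = 4.47e-05). Unlike Dbp and Tef, Nfil3 thus moved the same way in MOER as in the other genotypes.

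Bhlhe40, also called Dec1, encodes a repressor that acts on E-boxes. It gave 368 and 387 in MOER PPT against 309.55 and 295 in MOER oil, 182 and 159 in ERKO PPT against 548 and 423 in ERKO oil, and 76.0 and 49.0 in WT PPT against 501 and 487 in WT oil. The WT PPT arrays were far below all others. Bhlhe40 fell in ERKO (-1.42 ± 0.16, adjusted p = 0.000271) and 7.90-fold in WT (-2.72 ± 0.16, adjusted p = 5.68e-07). Its change in MOER, 0.31, did not pass (adjusted p = 0.44). Its response differed by 1.72 in MOER minus ERKO (adjusted p = 0.000933) and by -3.03 in WT minus MOER (adjusted p = 7.11e-06). Hlf, the third gene of the DBP and TEF family, fell in ERKO (-0.42, adjusted p = 0.0117) and WT (-0.46, adjusted p = 0.00276). The change of Hlf in MOER, 0.18, did not pass (adjusted p = 0.4). Ciart, which encodes a repressor also called CHRONO, gave 527 and 354 in ERKO oil arrays against 103 and 63.2 in WT oil arrays, a difference of 2.21 (adjusted p = 0.00271), and with PPT it fell in ERKO (-2.47, adjusted p = 0.00047). Btrc, a ubiquitin ligase subunit that acts on PER proteins, rose in MOER (0.46, adjusted p = 0.0217) and fell in WT (-0.38, adjusted p = 0.0122), and Cry2 fell in WT (-0.82, adjusted p = 0.000813).

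Under oil, the 11 genes gave 0 higher and 3 lower in MOER minus WT (Hlf, Btrc and Bhlhe40), 1 higher and 0 lower in ERKO minus WT (Ciart), and 0 higher and 2 lower in MOER minus ERKO (Ciart and Hlf). By an unadjusted p under 0.05 in the limma fit these were 3, 5 and 6 genes. Between the responses, MOER minus ERKO gave 5 higher and 0 lower, WT minus MOER 0 higher and 4 lower, and WT minus ERKO 1 higher and 1 lower, with 7, 4 and 5 genes at an unadjusted p under 0.05. The WT minus ERKO counts lie at or near the background of 10.3% higher and 12% lower. For MOER minus ERKO the background was 5.88% higher and 5.59% lower, and for WT minus MOER 10.5% and 11.1%. Under oil it was 2.13% and 3.53% in MOER minus WT, 2.24% and 2.77% in ERKO minus WT, and 0.894% and 1.16% in MOER minus ERKO.

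Of 14 liver genes known to be read out from the clock or from DBP and its relatives, 12 had a probe set and were tested. In MOER 2 were higher and 2 lower, in ERKO 2 higher and 10 lower, and in WT 3 higher and 8 lower, with medians of 0.0054, -0.83 and -0.45, against the same shares of all probe sets as for the other clock genes. Noct, a rhythmic gene of a phosphatase of nicotinamide cofactors, gave 591 and 513 in MOER PPT against 279 and 271 in MOER oil, 96.8 and 97.4 in ERKO PPT against 539 and 465 in ERKO oil, and 188 and 169 in WT PPT against 129.57 and 134 in WT oil. Like Dbp it was high in MOER PPT and ERKO oil, but it was low in WT oil. Noct rose in MOER (0.96, adjusted p = 0.000282), fell in ERKO (-2.19, adjusted p = 2.3e-07) and rose in WT (0.40, adjusted p = 0.0149).

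Gys2, the liver glycogen synthase, followed Dbp, with 1889 and 2159 in MOER PPT against 1220.2 and 1111 in MOER oil, 1070.3 and 1065 in ERKO PPT against 2441 and 2195 in ERKO oil, and 920.4 and 852 in WT PPT against 1600.1 and 1546 in WT oil. It rose in MOER (0.79, adjusted p = 0.000939) and fell in ERKO (-1.105, adjusted p = 5.86e-05) and WT (-0.82, adjusted p = 0.000116). Alas1, the first enzyme of haem synthesis, gave 667 and 685 in ERKO PPT against 2498 and 2388 in ERKO oil, and fell there (-1.83, adjusted p = 2.3e-07). Elovl3, a fatty acid elongase, and Insig2 were the 2 genes of the list that rose in ERKO. Elovl3 rose there by 3.26 (adjusted p = 1.57e-06), and it fell at least 1.68-fold in MOER (adjusted p = 0.000616) and at least 2.17-fold in WT (adjusted p = 8.42e-07). Nr1i3, a nuclear receptor also called CAR, fell in ERKO (-0.99, adjusted p = 5.48e-05) and WT (-0.98, adjusted p = 1.34e-05), and Cyp2b10, a target of that receptor, fell in MOER (-0.61, adjusted p = 0.00268), ERKO (-0.67, adjusted p = 0.000984) and WT (-3.78, adjusted p = 1.77e-09). Insig2, which retains SREBP in the endoplasmic reticulum, rose by 0.49 in ERKO (adjusted p = 0.00347) and by 2.27 in WT (adjusted p = 1.69e-08).

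**Figure D5:**
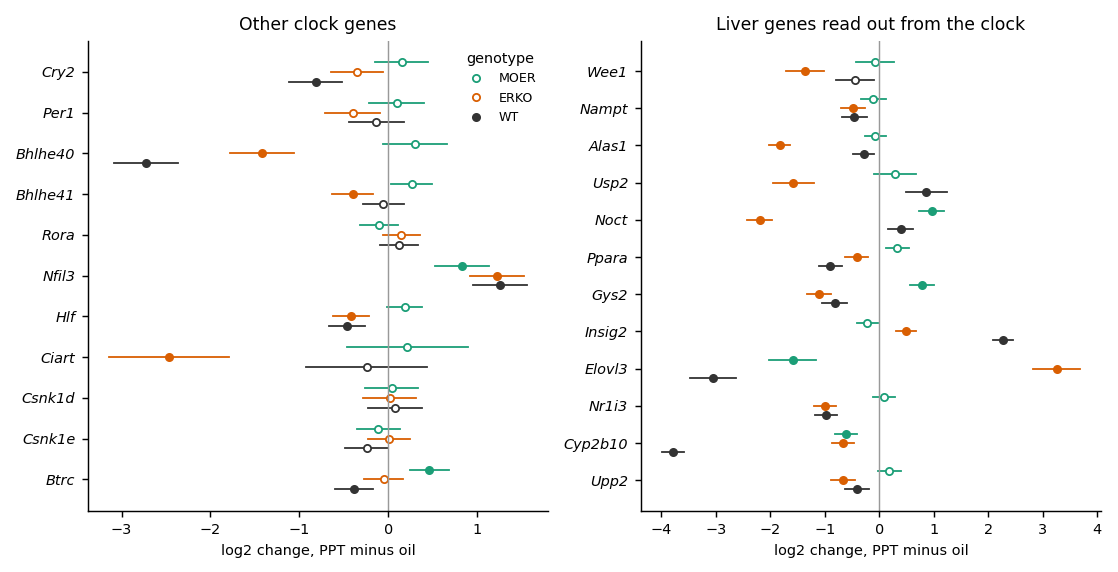
Change with PPT (x axis, log2 change, PPT minus oil, with 95% intervals) of 11 other clock genes (left) and 12 liver genes read out from the clock (right) in MOER (green), ERKO (orange) and WT (dark grey); filled points passed the test. Nfil3 lies above 0 in all 3 genotypes, Bhlhe40 lies at -2.72 in WT, and Noct and Gys2 lie above 0 in MOER and below 0 in ERKO.

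Genes that answer to signals known to set the liver clock were read from lists as well. Of 11 genes responsive to glucocorticoids, 4 were higher and 2 lower in MOER, 0 higher and 3 lower in ERKO, and 3 higher and 7 lower in WT. The shares of all probe sets called in these responses are those given above, and in ERKO, at 9.48% higher and 8.46% lower, 3 of 11 is a small count to read against them. By an unadjusted p under 0.05, limma gave 4 genes in ERKO. The metallothionein gene Mt1 gave 8073 and 8066 in MOER PPT against 3436 and 3371 in MOER oil, 4351 and 4425 in ERKO PPT against 4821 and 4146 in ERKO oil, and 865 and 846 in WT PPT against 3451 and 3611 in WT oil. It was high in MOER PPT, low in WT PPT and overlapping in ERKO. Of 9 heat shock and cold-inducible genes, 0 were called in MOER (2 at an unadjusted p under 0.05), 3 were higher and 1 lower in ERKO, and 6 were higher and 2 lower in WT.

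Among 7 genes induced by feeding, 6 were lower and 0 higher in MOER, 5 lower and 0 higher in ERKO, and 5 lower and 1 higher in WT, where 2.31%, 8.46% and 16.2% of all probe sets were called lower. The response differed between MOER and ERKO for 2 of the 7, Thrsp (-0.78, adjusted p = 0.00515) and Pklr (0.66, adjusted p = 0.00843). An unadjusted p under 0.05 was reached by 6 of the 7 in each genotype. Among 9 genes induced by fasting, 4 were higher and 0 lower in MOER, 2 higher and 2 lower in ERKO, and 2 higher and 4 lower in WT. In each genotype 6 of the 9 had an unadjusted p under 0.05 in the limma fit. Of all probe sets 2.35%, 9.48% and 14.8% were called higher in MOER, ERKO and WT. The 2 higher of 9 in ERKO and in WT are small counts to read against these shares. The part of feeding state, of hormones or of the hour at which livers were taken in the clock values was not tested.

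The genes whose levels over the 12 arrays were most like those of Dbp, among 1734 genes whose group means span at least 1 log2 unit, were Cyp3a13 (r = 0.953), Gys2 (0.906), Arhgef26 (0.882), Rgs16 (0.865) and Npc1 (0.847). Cyp3a13, a drug-metabolising P450, gave 3427 and 3729 in MOER PPT against 1135 and 1017 in MOER oil, 1374 and 1389 in ERKO PPT against 3763 and 3473 in ERKO oil, and 1187 and 1200.0 in WT PPT against 2979 and 2932 in WT oil. It was high and low in the same groups as Dbp. Those most like Arntl were Cela1 (0.778), Ogn (0.738), Vcpkmt (0.717), Gucy1a2 (0.716) and Slc51b (0.701). Cela1, a pancreatic elastase gene that is also among the acinar markers, gave 219 and 208 in MOER PPT against 440.1 and 364 in MOER oil, 257 and 244 in ERKO PPT against 119.5 and 40.8 in ERKO oil, and 126 and 105 in WT PPT against 130.3 and 136 in WT oil. The likeness to Arntl was thus looser than that to Dbp and the 2 ERKO oil arrays lay far apart for Cela1.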

How the data were processed

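Liver RNA was hybridised to 12 arrays. The authors deposited 1 linear intensity per probe set and array. Their probe summary and normalisation are not given in the sources used here, and array medians of 77.5 to 85.26 led to no further scaling. No depth applies, and 2 arrays a group limit the precision. Intensities were analysed as log2(intensity + 16). Probe sets over the 40th percentile of their array in at least 2 arrays were tested (19119 of 28815), in 1 limma fit (3.58.1, R 4.3.3) of 6 group means, with 6 residual and 10.47 moderated degrees of freedom. The 9 comparisons were the PPT responses, their differences, and the genotypes under oil, adjusted by Benjamini-Hochberg. The fit was run on simulated data with independent noise and, for each probe set, 1 spread in all groups. Such data lack the wider spread of the ERKO oil arrays and the replicate deviations that oil groups share. They cannot judge the fit on these points. The rule for dim groups, the members and all gene lists were chosen with earlier results of these data known. Named from a list were at most the 4 called genes of smallest p in a comparison, and some of these genes' values in further comparisons were added after they were seen. The lists were other clock, clock output, glucocorticoid, heat shock, fed-induced and fasting-induced genes and markers of hepatocytes, Kupffer cells, neutrophils, lymphocytes, endothelium, acinar cells, squamous epithelium and muscle. Likeness covered the 5 genes of highest r. Per the labels the authors used Cyber-T with a 2-fold change; a test in that style and other filters, scalings, spread models and left-out arrays were tried. Correlations of replicate deviations were 0.276 to 0.377 between oil groups and -0.147 to 0.127 between other groups, and the labels do not say what a replicate number marks, so a block by number was an alternative.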

Additional observations from a re-analysis of the deposited data

Results flagged for a closer look

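Results were picked out where the response to PPT differed between genotypes by the test of that difference (limma, adjusted over all probe sets). Each rests on 8 arrays, 2 a group, and the 3 contrasts share arrays. In MOER minus ERKO the differences were -2.195 for Arntl, -0.88 for Clock, 2.46 for Dbp, 1.49 for Tef, 0.67 for Per2, 1.30 for Per3, 0.74 for Nr1d1 and 0.70 for Nr1d2 on the log2 scale. In WT minus MOER they were 0.65 for Clock, -2.06 for Dbp, -1.555 for Tef, -0.975 for Per3, -1.58 for Nr1d1 and -0.69 for Nr1d2. In WT minus ERKO they were -1.88 for Arntl, 0.49 for Per2 and -0.84 for Nr1d1.

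With PPT, Arntl fell and Dbp and Tef rose in MOER, while Arntl rose and Dbp and Tef fell in ERKO, and in WT all 3 fell. The receptor that PPT acts on is, per the labels, absent in ERKO. There 8 of 9 clock genes were called, where 9.48% of all probe sets were called higher and 8.46% lower, and the count was 5 with only the ERKO arrays fitted, 6 with array weights and 6 without ERKO PPT replicate 2. The clock genes were chosen with earlier results of these data known, so this share describes them and tests nothing. The part of the acinar, muscle, squamous and Kupffer cell transcripts in these differences was not tested. The labels do not give the hour at which livers were taken. Its part therefore cannot be told apart from that of PPT or genotype.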

How the results depend on the processing

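No member's called change turned its direction under any alternative. The settings other than the Cyber-T-style test numbered 22. Of 50 called values among 81, 34 stayed called in each of these settings in which the gene was tested. Cry1 and Per2 did not pass the 60th percentile filter and were not tested in that setting. Of the 9 genes, those called between MOER and WT under oil numbered 3. They numbered 6 with array weights, 6 with the 60th percentile filter (Cry1 and Per2 not tested), and 5 with median centring or quantile normalisation. Between ERKO and WT under oil they numbered 4, against 1 with array weights or with only the compared groups fitted, and between MOER and ERKO under oil 6, against 3 with array weights and 2 with only the compared groups. The ERKO response had 8, against 5 with only its own groups. The Cyber-T-style test, which asks for an unadjusted p under 1e-04 and a 2-fold change, called 1 in the MOER, 2 in the ERKO and 1 in the WT response, and under oil 1 in MOER minus WT, 1 in ERKO minus WT and 2 in MOER minus ERKO. In the ERKO response it dropped Per3 by its p and not by its size. The cause of these shifts was otherwise not tested.

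Leaving out 1 array gave 3 to 6 genes in the MOER, 6 to 8 in the ERKO and 6 to 7 in the WT response. It gave 7 to 8 for MOER minus ERKO, 6 to 7 for WT minus MOER and 2 to 4 for WT minus ERKO. Under oil it gave 2 to 6 for MOER minus WT, 1 to 4 for ERKO minus WT and 3 to 6 for MOER minus ERKO. Over all probe sets, calls numbered 890 in the MOER response (437 to 1672 on leaving out an array), 3430 in ERKO (1200 to 5346) and 5921 in WT (4026 to 7737). They numbered 2193 in MOER minus ERKO (1078 to 4802) and 4266 in WT minus ERKO (2873 to 6735). Under oil they numbered 1082 in MOER minus WT (249 to 3332), 957 in ERKO minus WT (230 to 6329) and 392 in MOER minus ERKO (123 to 2151). Other settings gave 642 to 1471 in the MOER, 576 to 4704 in the ERKO and 5432 to 8949 in the WT response, 1037 to 3502 in MOER minus ERKO, and under oil 696 to 3980 in MOER minus WT, 80 to 1674 in ERKO minus WT and 60 to 813 in MOER minus ERKO. Median centring moved the share of higher calls to 40.4% in the ERKO response, from 52.8%, to 18.6% in MOER minus WT under oil, from 37.6%, and to 24.3% in MOER minus ERKO under oil, from 43.6%. With the replicate number as a block, the counts of clock genes were unchanged except in MOER minus ERKO under oil, at 5, where Nr1d2 had an adjusted p of 0.0556. Between oil groups the replicates of a number deviated together (r 0.276 to 0.377), and in the other pairs of groups r was -0.147 to 0.127; the labels do not say what a number marks. Each gene has 1 probe set, so no second probe set could be tried. The files hold no detection calls, and 2 arrays a group limit what can be detected.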
